A study of Mus musculus with 8 samples.

Results

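The 10 genes described here are 9 carriers of amino acids in the renal tubule, Slc3a1, Slc3a2, Slc7a7, Slc7a8, Slc7a9, Slc6a18, Slc6a19, Slc1a1 and Slc36a1, together with Cltrn (also called Tmem27), which encodes collectrin. They were represented by 14 of the 45101 probe sets on the Mouse Genome 430 2.0 array, where all probe sets assigned to 1 of these genes alone were taken, and they are 10 of the 18194 genes named in this way. Whole embryonic kidneys were pooled by genotype and stage, and the RNA of each of 4 pools was measured on 2 arrays. The E18.5 mutant pool held kidneys of 9 embryos, the E18.5 control pool of 14, the E14.5 mutant pool of 17 and the E14.5 control pool of 23. Mutant embryos were Lim1flox/lacZ; Rarb2-Cretg/+, with a lacZ null allele in every cell and a floxed Lim1 allele opened by Cre in the metanephric mesenchyme. Control embryos were Lim1flox/+; Rarb2-Cretg/+, so all 4 pools carried the Cre transgene and a floxed allele. The mice were of a mixed 129 / C57BL/6 / SJL/J background and both sexes were pooled. In these mutants nephrons stop at the vesicle stage, and mutant kidneys were set against controls to find transcripts of the nephron.

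Filtered amino acids are taken back almost completely by the proximal tubule, which imports them across the brush border and releases them to the blood across the basolateral membrane. Several of the carriers work as pairs of a heavy chain, which brings the complex to the membrane, and a light chain, which moves the amino acid. In humans, loss of the pair encoded by SLC3A1 and SLC7A9 causes cystinuria, loss of SLC7A7 causes lysinuric protein intolerance and loss of SLC6A19 causes Hartnup disorder. Collectrin is a membrane protein without transport activity of its own, and in mice it is needed for carriers of the Slc6 family to reach the brush border.

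The duplicate arrays of a pool were separate target preparations of the same RNA, so each condition has 1 biological sample, differences between duplicates are technical, and no p-value was computed between 2 pools. Signals are linear and are given for array 1 and array 2 of each pool. They can be compared between pools for 1 probe set, but not between probe sets. Log2 ratios are between the means of the duplicates, with their range over the 4 pairings of single arrays. A probe set passed the size criteria when its means differed at least 2-fold, by more than the fold between duplicates of either pool, when the higher mean times the ratio exceeded 100, and when both arrays of the higher pool reached the 40th percentile of their signals, which lay between 177 and 193. Detection calls were not used here, so a signal under that percentile may be background, and folds against it rest on the signals as deposited. Array medians lay between 225 and 243, which are not the medians that the methods give after normalization, and the reason was not found. Log2 signals of duplicates correlated with r between 0.980 and 0.990 across probe sets, and the E18.5 mutant arrays were farthest apart, with a median fold of 1.15 between them against 1.06 to 1.09 in the other pools. Probe sets for the targeted gene, Lhx1 (Lim1), had signals of 296 and 333 in E18.5 mutants, against 370 and 352 in E18.5 controls at the brighter 1 of 2, and neither differed 2-fold between genotypes at either stage. The place of these probes relative to the deleted part of Lhx1 was not given in the sources used here, so they check nothing about the labels.

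At E18.5, 6 of the 14 probe sets were lower in mutant than in control kidneys, 1 each for Cltrn, Slc3a1, Slc6a18, Slc7a9, Slc7a7 and Slc7a8, and 0 were higher. Over all 45101 probe sets, 1.27% were lower and 0.0931% were higher. The falls ranged from 37.8-fold for Cltrn to 2.65-fold for Slc7a8. With each gene read by its brightest probe set (the highest mean over all arrays), 5 of 10 were lower and 0 higher, against 1.75% and 0.0989% of all genes, because the arrays of the genotypes overlapped for the brightest Slc7a7 probe set. The median log2 ratio was -0.74 over the 14 probe sets and 0.05 over all probe sets. The arrays of the mutant and control pools did not overlap for 11 of the 14 probe sets, all lower in the mutant, against 17.6% of all probe sets lower and 24.5% higher. RNA of whole kidneys cannot tell fewer cells of a type from less RNA in each cell.

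**Figure D1:**
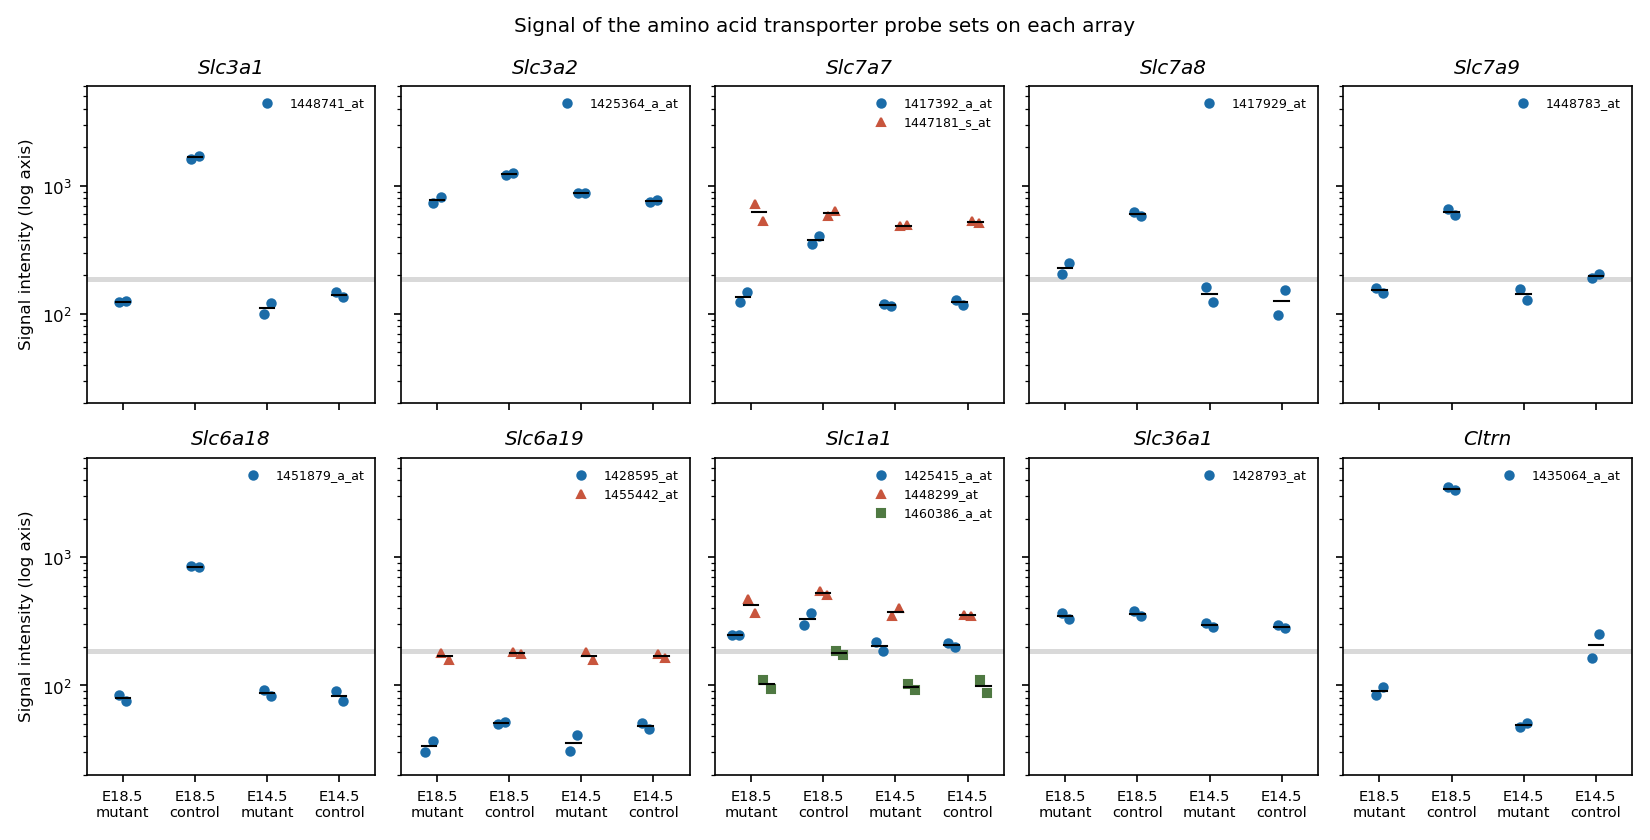
Signal intensity (log axis) on each of the 8 arrays for every probe set of the 10 genes, with 1 panel per gene. Points are single arrays, black bars are the means of duplicates, and the grey band is the range of the arrays' 40th percentiles, 177 to 193. For Cltrn, Slc3a1, Slc6a18, Slc7a9, Slc7a8 and the first Slc7a7 probe set, the E18.5 control arrays stand above all other arrays. They also do so, by smaller folds, for Slc3a2 and for each Slc1a1 probe set.

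Slc3a1 encodes rBAT, the heavy chain of the brush border carrier of cystine and dibasic amino acids. Its signal was 123 and 125 in E18.5 mutants, against 1604 and 1719 in E18.5 controls. At E14.5 it was 99.3 and 122 in mutants, against 147 and 135 in controls. Only the E18.5 control pool reached the 40th percentile, and the control arrays were above the mutant arrays at both stages. The E18.5 signal was 13.4-fold lower in the mutant (12.8 to 14.0), a log2 ratio of -3.74 (-3.81 to -3.68), and the E14.5 log2 ratio was -0.34 (-0.56 to -0.14), which did not pass. Between stages (E18.5 over E14.5) the log2 ratio of Slc3a1 was 0.16 in mutants (0.00 to 0.34) and 3.56 in controls (3.45 to 3.68), an 11.8-fold rise in controls (10.9 to 12.8).

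Slc7a9 encodes b0,+AT, the light chain that rBAT carries. Its signal was 160 and 146 in E18.5 mutants, against 654 and 595 in E18.5 controls. At E14.5 it was 156 and 128 in mutants, against 191 and 206 in controls. As with its heavy chain, the control arrays were above the mutant arrays at both stages. The 2 mutant pools of Slc7a9 overlapped and were under the 40th percentile on all their arrays. Only 1 array of the E14.5 control pool reached it. The E18.5 fall was 4.07-fold (3.71 to 4.47). The E14.5 log2 ratio of mutant over control was -0.48 (-0.69 to -0.28) and did not pass. The stage log2 ratio was 0.11 in mutants (-0.10 to 0.33), and in controls the E18.5 signal was 3.15-fold that of E14.5 (2.88 to 3.43).

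Slc3a2 encodes 4F2hc, the heavy chain of the basolateral exchangers, which most dividing cells also use. It was measured well above the 40th percentile in every pool. Its signal was 736 and 815 in E18.5 mutants, against 1214 and 1247 in E18.5 controls. At E14.5 it was 883 and 878 in mutants, against 747 and 770 in controls. The arrays of the genotypes did not overlap at either stage, and the order was opposite, with mutants below controls at E18.5 and above them at E14.5. The log2 ratio of mutant over control was -0.67 at E18.5 (-0.76 to -0.57), 1.59-fold lower, and 0.21 at E14.5 (0.19 to 0.24). Neither reached 2-fold. Between stages (E18.5 over E14.5) the log2 ratio was -0.18 in mutants (-0.26 to -0.11) and 0.70 in controls (0.66 to 0.74). Summed signals of 3 markers of dividing cells, Mki67, Top2a and Bub1b, were 4061 to 5000 in E18.5 mutants, 4005 to 4108 in E18.5 controls, 7219 to 8180 in E14.5 mutants and 7161 to 7170 in E14.5 controls; their part in the Slc3a2 values was not tested.

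Slc7a7 encodes y+LAT1, a light chain of 4F2hc that exports dibasic amino acids to the blood and is also found in macrophages. Its first probe set, 1417392_a_at, had signals of 123 and 148 in E18.5 mutants, against 350 and 403 in E18.5 controls. At E14.5 this probe set had 120 and 116 in mutants, against 129 and 118 in controls. The E18.5 control pool alone reached the 40th percentile there, and among the other 3 pools, neighbours in the order of signals overlapped. The E18.5 fall in mutants was 2.78-fold (2.36 to 3.28). Its stage log2 ratio was 0.20 in mutants (0.03 to 0.36), and in controls E18.5 was 3.05-fold above E14.5 (2.71 to 3.42). The brighter probe set, 1447181_s_at, had 716 and 532 in E18.5 mutants, against 585 and 633 in E18.5 controls, which overlap, for a log2 ratio of 0.03 (-0.25 to 0.29). At E14.5 the brighter probe set had 484 and 490 in mutants, against 527 and 510 in controls. The 2 probe sets of this gene therefore disagree. The suffixes of both mark probes that may be shared by more than 1 transcript, and which of them reads the gene better was not tested. The summed signal of 5 macrophage markers (Csf1r, Cd68, Adgre1, C1qa and C1qb) was 2879 to 3301 in E18.5 mutants and 2272 to 2733 in E18.5 controls, with 0 of 5 past the criteria and none at 0. Their part in the values of Slc7a7 was not tested.

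Slc7a8 encodes LAT2, the light chain of 4F2hc for neutral amino acids. Its signal was 203 and 250 in E18.5 mutants, against 623 and 578 in E18.5 controls. At E14.5 it was 163 and 123 in mutants, against 98.2 and 153 in controls, under the 40th percentile on all 4. The E18.5 pools did not overlap and the E14.5 pools did. The E18.5 fall was 2.65-fold (2.31 to 3.07), and the E14.5 log2 ratio was 0.19 (-0.32 to 0.73). Both genotypes had higher signals at E18.5 than at E14.5 on every array, by 1.58-fold in mutants, a log2 ratio of 0.66 (0.31 to 1.02), which did not pass, and by 4.78-fold in controls (3.78 to 6.34), which did.

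Slc6a18 encodes a sodium-coupled carrier of small neutral amino acids that in mice needs collectrin. Its signal was 84.7 and 76.3 in E18.5 mutants, against 852 and 841 in E18.5 controls. At E14.5 it was 91.6 and 83.1 in mutants, against 89.9 and 75.4 in controls. The E18.5 control pool stood alone, and the other 3 pools overlapped below the 40th percentile. The E18.5 fall was 10.5-fold (9.93 to 11.2), and the log2 ratio was 0.08 at E14.5 (-0.11 to 0.28). The stage log2 ratio of Slc6a18 was -0.12 in mutants (-0.26 to 0.03), against 3.36 in controls, where the E18.5 signal was 10.2-fold higher (9.35 to 11.3).

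Slc6a19, which lies next to Slc6a18 on chromosome 13 with 0 protein-coding genes between them in RefSeq, encodes B0AT1, the main importer of neutral amino acids. Its 2 probe sets were near or under the 40th percentile, which only array 1 of the E18.5 control pool reached, for the second. The first, 1428595_at, had signals of 30.3 and 36.9 in E18.5 mutants, against 50.3 and 52.3 in E18.5 controls. The second, 1455442_at, had 178 and 159 in E18.5 mutants, against 183 and 176 in E18.5 controls. At E14.5 the first had 30.8 and 40.8 in mutants, against 50.9 and 45.5 in controls, and the second 182 and 158 in mutants, against 177 and 164 in controls. The first probe set was lower in mutants without overlap at both stages, with log2 ratios of -0.61 and -0.43, and the second overlapped at both. Neither passed in any comparison, and at these signals a difference in Slc6a19 was not detectable by the criteria.

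Cltrn had the lowest mutant over control ratio of the 14 probe sets at both stages. Its signal was 84.3 and 97.1 in E18.5 mutants, against 3521 and 3344 in E18.5 controls. At E14.5 it was 47.2 and 50.5 in mutants, against 165 and 251 in controls. The genotypes did not overlap at either stage. The E18.5 fall was 37.8-fold (34.4 to 41.8), a log2 ratio of -5.24 (-5.38 to -5.11). The E14.5 ratio was 4.26-fold lower (3.27 to 5.31), a log2 ratio of -2.09 (-2.41 to -1.71), but it did not pass because the first E14.5 control array, at 165, was under its 40th percentile of 191. It passed without that array or without a minimum signal. The study, which required present calls on both control arrays instead, lists this gene as Tmem27 at the same fold at E14.5. In mutants Cltrn was at 1.86-fold its E14.5 signal at E18.5, a log2 ratio of 0.89 (0.74 to 1.04), with all 4 arrays under the 40th percentile. In controls it was 16.5-fold higher at the later stage (13.3 to 21.4).

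Slc1a1 encodes EAAC1, the carrier of acidic amino acids, and Slc36a1 encodes PAT1, a proton-coupled carrier of small neutral amino acids that is also found on lysosomes of many cells. The brightest of 3 Slc1a1 probe sets, 1448299_at, had signals of 475 and 370 in E18.5 mutants, against 542 and 509 in E18.5 controls. The next, 1425415_a_at, had 246 and 248 in E18.5 mutants, against 296 and 367 in E18.5 controls. The dimmest, 1460386_a_at, had 111 and 93.7 in E18.5 mutants, against 186 and 174 in E18.5 controls. The E18.5 log2 ratios were -0.32, -0.43 and -0.81 in that order, and for each the mutant arrays were below the control arrays without overlap, but none reached 2-fold. At E14.5 the log2 ratios of these probe sets lay between -0.03 and 0.09. Between stages Slc1a1 had log2 ratios of 0.18, 0.28 and 0.08 in mutants and 0.58, 0.68 and 0.86 in controls. Slc36a1 had signals of 369 and 330 in E18.5 mutants, against 382 and 347 in E18.5 controls, and 307 and 286 in E14.5 mutants, against 294 and 281 in E14.5 controls. These overlapped between genotypes at both stages, with log2 ratios of -0.06 (-0.21 to 0.09) at E18.5 and 0.04 (-0.04 to 0.13) at E14.5. Slc36a1 was higher at E18.5 in both genotypes without overlap, by a log2 ratio of 0.24 in mutants and 0.34 in controls.

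**Figure D2:**
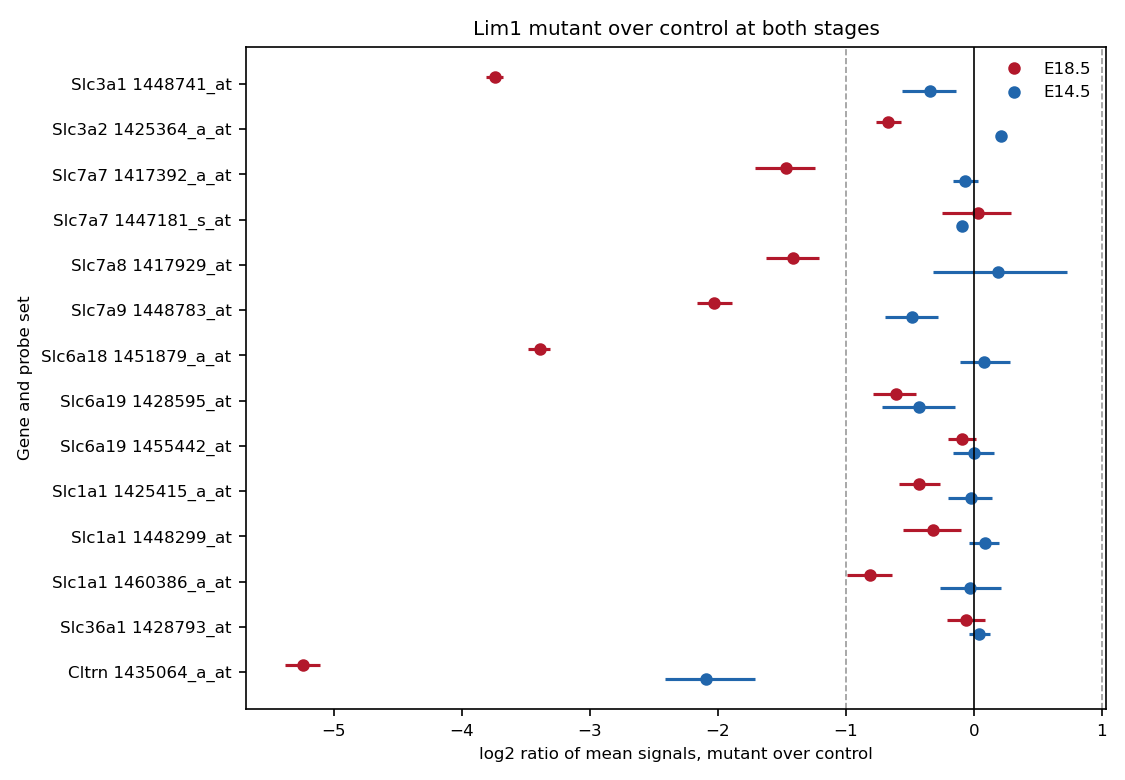
Log2 ratio of mean signals, mutant over control, for each of the 14 probe sets at E18.5 (red) and E14.5 (blue). Lines are the range over the 4 pairings of single arrays and dashed lines mark a 2-fold difference. At E18.5 6 probe sets lie below -1, and at E14.5 Cltrn is the only one, at -2.09.

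Promoter sequence was available from RefSeq (GRCm38.p6) for 9 of the 10 genes, in 15 windows of 250 bases before to 50 after a start. Each was searched on both strands for the letters CAAAGTCCA and CAAAGGTCA, which HNF4 factors, known regulators of proximal tubule genes, can bind. A match was found for Slc3a1 only, in the letters CAAAGTCCA, where 0.950% of 32851 mouse windows hold either motif. For the 2 genes with the largest E18.5 falls, the window of Slc3a1 and the first of 2 windows of Cltrn are printed, with the match in capitals. They are chr17:85028097-85028396 for Slc3a1 and chrX:164089937-164090236 for Cltrn, both on the plus strand.
Slc3a1: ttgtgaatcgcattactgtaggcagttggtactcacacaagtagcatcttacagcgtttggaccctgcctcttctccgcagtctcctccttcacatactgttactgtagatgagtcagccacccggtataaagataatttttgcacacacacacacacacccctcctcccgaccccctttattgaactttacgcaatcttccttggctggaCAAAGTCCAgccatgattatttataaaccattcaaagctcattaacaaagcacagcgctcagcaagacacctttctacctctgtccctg
Cltrn: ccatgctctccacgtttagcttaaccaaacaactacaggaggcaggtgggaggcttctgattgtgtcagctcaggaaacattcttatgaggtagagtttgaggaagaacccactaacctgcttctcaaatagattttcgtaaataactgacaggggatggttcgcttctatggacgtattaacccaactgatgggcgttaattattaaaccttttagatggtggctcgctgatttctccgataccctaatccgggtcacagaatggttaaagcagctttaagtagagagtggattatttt
In Slc3a1 the HNF4 letters begin 39 bases before the start. Neither window of Cltrn, the gene with the larger fall, holds either motif. A match of letters is a description and does not show that a factor binds.

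At E14.5, 0 of the 14 probe sets were lower or higher in mutants by the size criteria, where 0.0732% of all probe sets were lower and 0.00222% were higher. Of the 10 genes by brightest probe set 0 were lower, against 0.0715% of all genes. The median log2 ratio was -0.03 over the 14 and -0.01 over all probe sets. Arrays did not overlap for 5 probe sets that were lower and 1 that was higher in the mutant, against 19.7% and 17.4% of all probe sets. The genotype gap (log2 ratio of mutant over control) at E18.5 minus that at E14.5 had a median of -0.83 over the 14 probe sets (-0.99 to -0.72 over 16 choices of arrays). It was -3.47 for Slc6a18 (-3.76 to -3.20), -3.40 for Slc3a1 (-3.67 to -3.11), -3.15 for Cltrn and -0.88 for Slc3a2. With 1 pool per condition this difference could not be tested.

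Between stages, 0 of 14 probe sets passed in mutants in either direction, against 0.721% of all probe sets higher at E18.5 and 0.889% lower, and by brightest probe set 0.896% of all genes were higher and 0.742% lower. The median log2 ratio in mutants was 0.17 over the 14 and 0.01 over all probe sets. The mutant arrays did not overlap between stages for 7 probe sets that were higher and 1 that was lower, against 26.0% and 23.9% of all probe sets. In controls 6 of 14 were higher in E18.5 than in E14.5 kidneys, against 2.55% of all probe sets, and 0 were lower, against 1.85%. They belong to Slc3a1, Slc7a9, Slc7a7, Slc7a8, Slc6a18 and Cltrn. These genes are also those lower in E18.5 mutants, and both comparisons use the same E18.5 control pool. By brightest probe set 5 of 10 genes were higher and 0 lower, against 3.57% and 1.21% of all genes. Control arrays of the stages did not overlap for 12 probe sets, all higher at E18.5, against 26.5% of all probe sets higher and 36.0% lower. The median log2 ratio in controls was 0.78 over the 14 and -0.06 over all probe sets. On both arrays of a pool, 6 of 14 probe sets reached the 40th percentile in E18.5 mutants, 11 in E18.5 controls, 5 in E14.5 mutants and 5 in E14.5 controls. Of all probe sets, 56.9%, 57.9%, 57.9% and 57.4% did so in the same order of pools.

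**Figure D3:**
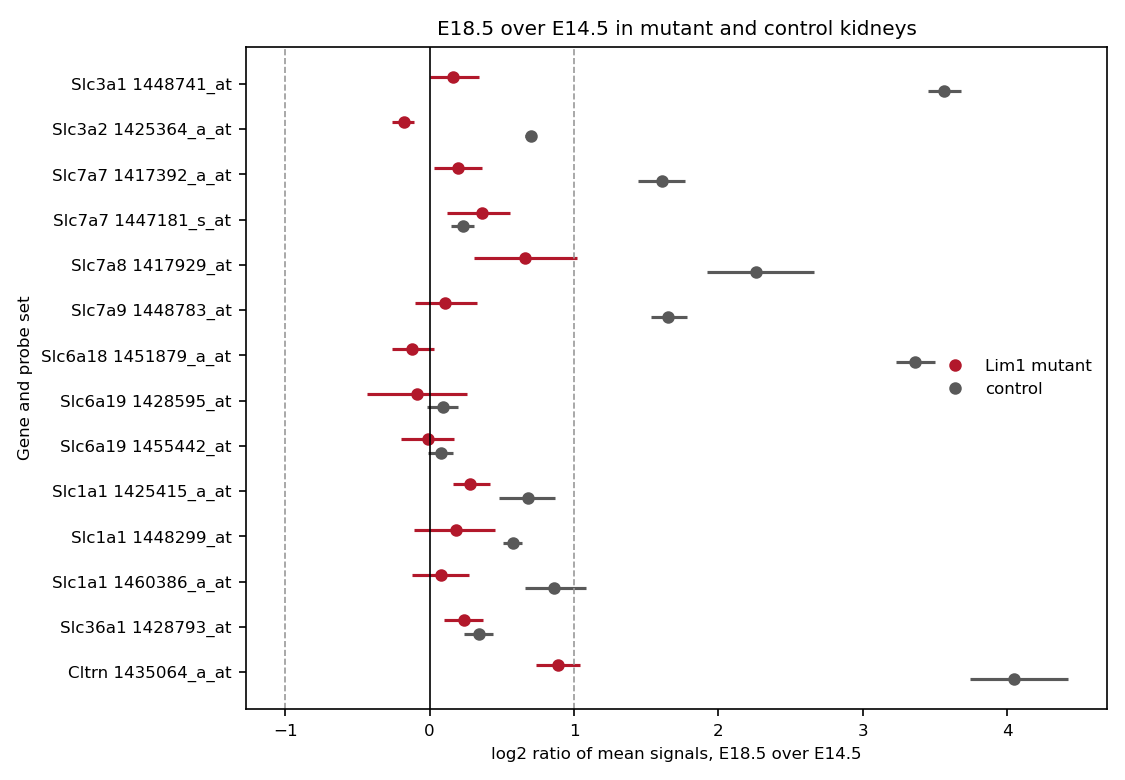
Log2 ratio of mean signals, E18.5 over E14.5, of each of the 14 probe sets in mutant (red) and control (grey) kidneys, with the range over the 4 pairings of single arrays and dashed lines at a 2-fold difference. In mutants the highest is Cltrn at 0.89, and in controls 6 probe sets exceed 1, up to 4.05 for Cltrn.

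An additive limma fit on the 4 pool means, with Benjamini-Hochberg adjustment over 27061 probe sets, tested for a genotype effect shared by the stages and a stage effect shared by the genotypes in 11 of the 14 probe sets, from 9 genes. It called 0 of the 11 for genotype and 0 for stage. At an unadjusted p under 0.05 there were 3 for genotype and 5 for stage. Over all probe sets 0.0% were called for genotype and 8.62% for stage, with 3.86% and 27.8% at the unadjusted threshold. The common genotype effect of Cltrn was a log2 ratio of -3.63 with an SE of 0.73, and its limma adjusted p was 1.0. Slc7a8 had the lowest adjusted p for stage, 0.0846, at a log2 ratio of 1.47 with an SE of 0.38. With 1 residual degree of freedom, the fit counts a genotype gap that differs between stages as noise. Its calls depended on single arrays: without E18.5 mutant array 2 it called Cltrn for genotype and 4 probe sets for stage (Slc3a1, Slc7a8, Slc7a9 and Cltrn), and Slc7a8 was called for stage without E18.5 mutant array 1 or E18.5 control array 1.

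Of 5 listed light chains outside the 10 genes, 1 was lower and 0 were higher in E18.5 mutants, against 1.75% and 0.0989% of all genes. Their median log2 ratio was 0.06. The lower one was Slc7a13, the light chain AGT1, which in mice pairs with rBAT in the late proximal tubule. Its signal was 179 and 149 in E18.5 mutants, against 622 and 633 in E18.5 controls, 3.83-fold lower in the mutant, and for its second probe set the arrays overlapped (log2 ratio of 0.12). The remaining 4 did not pass. Slc7a5, the LAT1 light chain of growing cells, had a log2 ratio of 0.29, and Slc7a6, Slc7a10 and Slc7a11 had 0.06, 0.20 and -0.04.

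Of 26 other amino acid transporters, 3 were lower and 0 higher in E18.5 mutants, against 1.75% and 0.0989% of all genes. Their median log2 ratio was 0.00, where the median of all genes was 0.03. Slc7a12 is a further light chain gene, counted here and not among the light chains above. It was 7.10-fold lower, with signals of 72.0 and 69.1 in mutants, against 473 and 530 in controls. Slc6a13, a GABA carrier, was 4.56-fold lower, and Slc6a20b, a relative of the imino acid carrier gene Slc6a20a, was 2.99-fold lower. In controls 3 of the 26 were higher at E18.5 than at E14.5 and 0 were lower, against 3.57% and 1.21% of all genes. None of 10 genes of the amino acid response (Asns, Atf4, Chac1, Ddit3, Trib3, Sesn2, Psat1, Phgdh, Aldh18a1 and Eif4ebp1) passed in E18.5 mutants, and their median log2 ratio was 0.03.

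Partners and regulators of these carriers were read where a probe set was assigned to 1 gene, which held for Anpep, Pdzk1 and Hnf4a. Anpep encodes aminopeptidase N, a brush border enzyme that binds B0AT1. It had signals of 226 and 263 in E18.5 mutants, against 3486 and 3823 in E18.5 controls, 15.0-fold lower. Pdzk1 encodes a brush border scaffold protein. Its signal was 15.5-fold lower in mutants at E18.5, and at E14.5 it was 144 and 160 in mutants, against 363 and 397 in controls, 2.51-fold lower, which also passed. Hnf4a encodes a transcription factor of the proximal tubule, and its 4 probe sets disagreed. One probe set had 51.7 and 65.5 in E18.5 mutants, against 936 and 964 in E18.5 controls, 16.2-fold lower, and another had 307 and 277 in E18.5 mutants, against 1450 and 1512 in E18.5 controls, 5.07-fold lower. At E14.5 the log2 ratios of mutant over control were -2.51 for the first of these, which did not pass, and -1.06 for the other, 2.09-fold lower, which did. The study, with present calls in place of the percentile, lists the gene as Hnf4 among those higher in E14.5 controls. The brightest over all arrays had an E18.5 log2 ratio of -0.28 (-0.66 to 0.14) with overlapping arrays, and the last had -0.18, and neither passed.

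**Figure D4:**
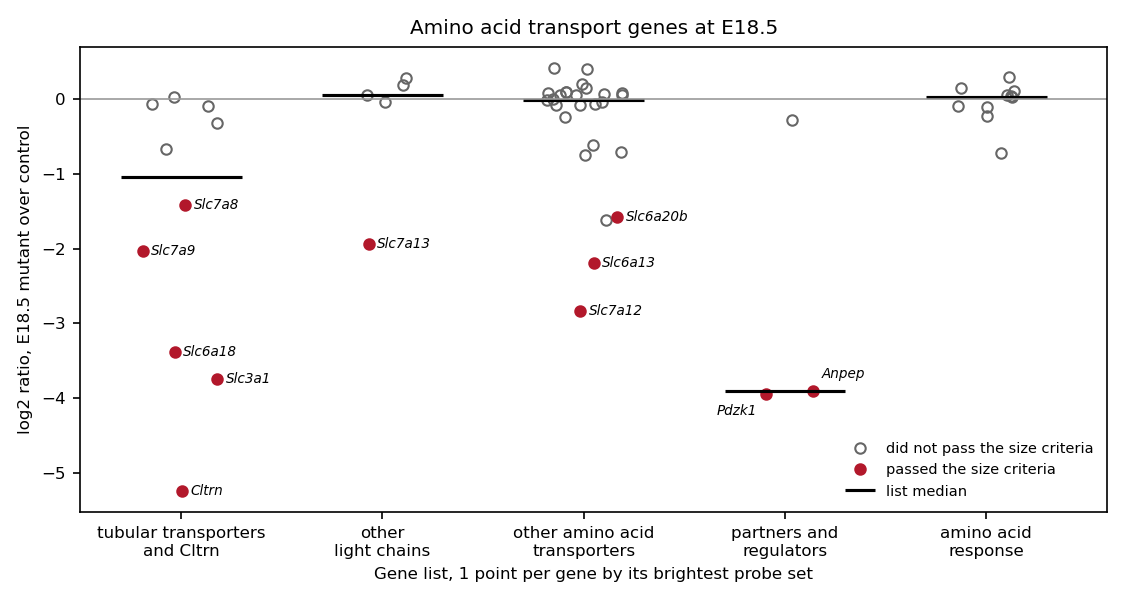
Log2 ratio of mean signals, E18.5 mutant over control, for genes of 5 lists, where each point is the brightest probe set of a gene. Filled red points passed the size criteria, open points did not, and black bars are list medians; all genes that passed lie below 0.

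Some markers of several nephron segments and of the collecting duct were lower together with these genes. Of 8 proximal tubule markers (Slc34a1, Lrp2, Cubn, Slc5a2, Slc5a12, Slc22a6, Aqp1 and Fbp1), 6 were lower in E18.5 mutants, with a median log2 ratio of -4.15. The others were Slc5a2, at -0.07, and Slc5a12, at -1.11, each by its brightest probe set. Their second probe sets had -0.95 for Slc5a2, which did not pass, and -3.79 for Slc5a12, which did. The summed signal of the 8 was 1448 to 1542 in E18.5 mutants, 17190 to 17555 in E18.5 controls, 1187 to 1248 in E14.5 mutants and 1394 to 1586 in E14.5 controls. Slc34a1, the phosphate carrier that defines this segment, had signals of 85.2 and 73.8 in E18.5 mutants, under the 40th percentile, against 5061 and 5027 in E18.5 controls. Both thick ascending limb markers were also lower, Umod at a log2 ratio of -5.28 and Slc12a1 at -4.49, with a summed signal of 196 to 220 in E18.5 mutants, against 5361 to 5536 in E18.5 controls. So were Slc12a3 of the distal tubule (-2.38), Aqp2 of the collecting duct (-3.20) and Synpo of the podocyte (-1.31), each 1 of its list, where Calb1 (0.08), Aqp3 (-0.83), Scnn1b (-0.41), Nphs1 (-0.05) and Podxl (-0.94) did not pass by their brightest probe sets, and other probe sets of Aqp3 did (-1.83 and -1.65). Other probe sets of the genes counted as lower disagreed in part. Those of Slc12a1 (-0.03), Slc12a3 (-0.04), Synpo (0.09) and Slc22a6 (-0.49) and 1 of Lrp2 (-0.01) did not pass. Those of Umod (-5.86) and Cubn (-3.93) and another of Lrp2 (-4.69) did. A further probe set of Aqp3 had 0.24 and did not pass. The 2 nephron progenitor markers, Six2 and Cited1, summed to 2277 to 2527 in E18.5 mutants and 1340 to 1416 in E18.5 controls, and neither passed. Of 2 liver markers, Alb was higher (log2 ratio of 1.02) and Afp was lower (-2.29) in E18.5 mutants, and 0 markers of red cells, dividing cells or the adrenal gland passed. The part of any cell type in the values above was not tested.

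The genes whose pattern over the 4 pools was most like that of Cltrn, by the smallest distance between centred log2 pool means among 13441 genes, were Hao2 (0.71), Gsta2 (0.84), Slc12a1 (0.87), Slc34a1 (0.87) and S100g (0.89). Hao2 had mutant over control log2 ratios of -5.33 (E18.5) and -2.82 (E14.5), and it was the only one of the 5 with an E14.5 ratio lower than that of Cltrn. For Slc3a2 the nearest genes were Mrpl50 (0.049), Cmc2 (0.058), Klhl2 (0.064), Cisd1 (0.068) and Rbbp9 (0.078). All had mutant over control log2 ratios below 0 at E18.5 and above 0 at E14.5, which follows from how they were chosen. For Slc36a1 the nearest genes were Pramel6 (0.0073), Enpp5 (0.015), Rnh1 (0.017), Slc8a3 (0.022) and Plekhg5 (0.022). Each distance rests on 4 pools.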

How the data were processed

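RNA of whole kidneys from 4 pools was hybridized to 8 arrays, 2 per pool. The deposited values are linear signal intensities, 1 for each probe set on each array, made by the authors with the dChip model and its invariant-set normalization. Of 45101 probe sets, GEO's platform annotation with current mouse symbols gave 34958 exactly 1 gene, 932 several and 9211 none; 34754 were matched by gene identifier. The size criteria follow the study's methods, with the 40th percentile in place of present calls. Members of the group, gene lists and tests were chosen with earlier results of these data known. Named genes are all members, all light chains and partners, and from the other lists up to 3 genes per direction past the criteria. limma 3.58.1 (R 4.3.3) was fitted to the means of log2(signal + 1) per pool with additive genotype and stage terms, for probe sets whose mean reached the 40th percentile (prior degrees of freedom 3.91). Python 3.11.15, numpy 2.4.6, pandas 2.3.3 and matplotlib 3.10.9 were used. The criteria and the fit were also run on simulated data, with no outcome given here. For the fit, the simulated genotype change was equal at both stages, so it could not show how a gap that differs between stages is handled. The number of arrays limits the precision. Some genes and a motif of the planned lists are not reported here.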

Additional observations from a re-analysis of the deposited data

Results flagged for a closer look

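Slc3a2 was singled out because both of its contrasts ran in opposite directions in 2 groups, in every pairing of single arrays. Mutant over control, its log2 ratio was -0.67 in the E18.5 pools and 0.21 in the E14.5 pools. Between stages (E18.5 over E14.5), it was -0.18 in mutants and 0.70 in controls. Both contrasts rest on the same 4 pools. The difference was not tested, since each condition has 1 pool.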

How the results depend on the processing

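Other minimum signals, geometric means, dropping the criterion on duplicates, adding 50 units to the signals, scaling by the median, quantile normalization and leaving out each array in turn left 117 of 124 recomputed counts and medians the same within their tolerance (1.5 times for a count, the spread between arrays for a median), and none changed sign. The count of probe sets lower in E14.5 mutants, 0, became 1 (Cltrn) with no minimum signal and lay between 0 and 1 when single arrays were left out, at 1 without E14.5 control array 1. The median difference of the genotype gap, -0.83, was -0.70 with 50 added to each signal. Limma calls over the single arrays left out lay between 0 and 1 for genotype (Cltrn without E18.5 mutant array 2) and between 0 and 4 for stage. For stage there was 1 (Slc7a8) without E18.5 control array 1 or E18.5 mutant array 1, and 4 (Slc3a1, Slc7a8, Slc7a9 and Cltrn) without E18.5 mutant array 2. The cause was not tested. Of 448 recomputed ratios of single probe sets, 430 moved by less than the spread between arrays and 18 moved by more, 13 of these with 50 added. No ratio that passed the criteria changed direction. Some ratios near 0 that did not pass changed sign. That of the brighter Slc7a7 probe set at E18.5, 0.03, was -0.01 after scaling by the median. Signals near the 40th percentile limit the mutant and E14.5 values of most genes. No paired analysis was possible because the array numbers mark technical duplicates of 1 RNA, which were averaged before any fit.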

Other observations

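Some genes of the transport and amino acid response lists had E18.5 mutant arrays entirely below or above the control arrays without passing the criteria, as 17.6% (below, those that passed included) and 24.5% (above) of all probe sets were. The examples were chosen after their values were seen. Slc6a15, a carrier of neutral amino acids, had signals of 43.8 and 49.3 in E18.5 mutants, against 136 and 149 in E18.5 controls, a log2 ratio of -1.61, and all 4 were under the 40th percentile. Slc43a2, the basolateral neutral amino acid carrier LAT4, had 264 and 247 in E18.5 mutants, against 426 and 426 in E18.5 controls, a log2 ratio of -0.74, and its other probe sets had -0.61 and 0.13. Slc38a3, the glutamine carrier SNAT3, had 428 and 404 in E18.5 mutants, against 651 and 704 in E18.5 controls, a log2 ratio of -0.70, and its other probe set had 0.03 with overlapping arrays. Phgdh, the first enzyme of serine synthesis, had 1574 and 1899 in E18.5 mutants, against 2856 and 2868 in E18.5 controls, a log2 ratio of -0.72. In the other direction, Psat1, the next enzyme of serine synthesis, had 934 and 1086 in E18.5 mutants, against 836 and 810 in E18.5 controls, a log2 ratio of 0.30. Slc38a5 had a log2 ratio of 0.41, with all 4 arrays under the 40th percentile, and Slc7a5 had 0.29. At E14.5 the log2 ratios of mutant over control were -0.59 for Slc6a15, 0.18 for Slc43a2, -0.03 for Slc38a3, 0.19 for Phgdh and 0.26 for Psat1.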
